A study of Mus musculus with 9 samples.

Results

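The 36 genes described here are markers of macrophages, the tissue-resident phagocytes of the immune system, read in the inguinal white adipose tissue of mice. They were chosen by name and sorted into 6 roles: lineage genes, Fc receptors and their adaptors, pattern and scavenger receptors, lysosomal genes with lysozymes, genes of resident macrophages and genes of lipid-associated macrophages. A gene's value is the row of the deposited log2 table that the platform annotation gives to that gene alone, or the brightest such row where there were several. Of the 36 genes, 34 had a row of their own and 33 passed the filter on low values, out of 30827 genes with a row and 16972 genes tested in all. The Spi1 row also carries the name of a second gene entry (Sfpi1) and was left untested, Trem2 lay under the filter, and the annotation used here names no row for Spp1.

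All mice carried Adiponectin-rtTA, a doxycycline-responsive activator driven by an adipocyte promoter, together with TRE-Cre, a Cre recombinase that this activator switches on. All were raised at room temperature to 8 weeks of age and then ate doxycycline chow for 28 days. Control mice were Zfp423+/+, and knockout mice were Zfp423loxP/loxP and lose the transcription factor Zfp423 in adipocytes. The control and knockout groups stayed at room temperature, while the cold group was made of control mice that spent the last 14 days at 6 °C, with 3 arrays in each group. The adiponectin promoter directs the deletion to adipocytes, and the arrays read RNA of the whole pad, so no value here places a transcript in one cell type. The study asked how closely the knockout tissue resembles that of cold-exposed controls. Nothing in the labels states that each array holds the RNA of its own mouse. The p-values therefore speak for the spread seen between these arrays, part of which may be technical.

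Macrophages of white fat clear dying adipocytes, take up lipid, iron and immune complexes and present antigen. In lean fat most are long-lived resident cells that carry scavenger and efferocytosis receptors and secrete the complement component C1q. A lipid-associated state, built around the lipid receptor Trem2 with lysosomal and matrix-degrading genes, is best known from obese fat, where such cells surround dead adipocytes. Development and survival of both depend on the receptor Csf1r and on the transcription factor PU.1, which Spi1 encodes. The inguinal pad also encloses a lymph node, and the labels do not say whether it was removed. In whole tissue, fewer macrophages and less of a transcript per macrophage cannot be told apart.

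The deposited values ran from 1.84 to 19.93 on a log2 scale, where 1 unit is a 2-fold difference, and carry no detection call. The adipocyte gene Adipoq read between 14.70 and 15.34 on the 9 arrays, so the labelled tissue showed its defining marker on each of them. Zfp423 read 8.74, 8.22 and 8.40 in controls and 7.56, 8.15 and 8.04 in knockouts, and its difference of -0.53 did not pass the threshold (limma adjusted p = 0.256, threshold 0.05). The thermogenic gene Ucp1 rose by 6.90 ± 0.47 (SE) log2 units in knockouts and by 6.61 ± 0.47 in the cold (limma adjusted p = 0.00869 and 0.00227). In each group 1 array lay between the others for the largest share of genes: control array 3 for 52.5%, knockout array 3 for 61.8% and cold array 2 for 41.9%. Skeletal muscle genes stood at -5.35 relative to the control mean on cold array 3. Over all tested genes, 62 passed between knockout and control, 256 between cold and control and 407 between cold and knockout.

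The sequences upstream of the members were searched for 3 motifs on both strands. RefSeq windows of assembly GRCm38.p6, from 250 bases before to 50 bases after a transcription start, were at hand for 28 of the 36 genes, in 34 windows. The core of the PU.1 motif, GAGGAA or TTCCTC, was present in 19 of the 34 windows (55.9%), against 28.3% of all 32851 windows. The AP-1 motif, TGACTCA or TGAGTCA, was present in 6 windows (17.6%), against 5.2% of all windows. The E-box CACGTG, which is its own reverse complement and is the core of the motif of the lysosomal regulators of the TFEB family, was in 0 of the 34 windows, against 7.15% of all. Matches of the first 2 motifs cannot overlap each other. A match describes the letters of a window and not a bound site, and no match says only that these letters are not in that window. By gene, 17 of the 28 had a PU.1 core (60.7%, against 31.3% of all genes). Ctss and Cd68 are shown because they had 2 of the largest differences in the cold. Cd163 and Mertk are shown because they departed from an order of arrays that most members share, Mertk among controls only. Folr2 also departed among controls, has an AP-1 match and is not shown. The windows shown were thus picked, and whether a motif goes with the order of arrays was not tested. Capitals mark motif matches: Ctss has 2 PU.1 cores, Cd68 has 2 PU.1 cores and 2 AP-1 motifs, and neither Cd163 nor Mertk has a match to any of the 3. The windows are chr3:95526536-95526835 on the plus strand for Ctss, chr11:69666121-69666420 on the minus strand for Cd68, chr6:124304401-124304700 on the plus strand for Cd163 and chr2:128698665-128698964 on the plus strand for Mertk.
Ctss: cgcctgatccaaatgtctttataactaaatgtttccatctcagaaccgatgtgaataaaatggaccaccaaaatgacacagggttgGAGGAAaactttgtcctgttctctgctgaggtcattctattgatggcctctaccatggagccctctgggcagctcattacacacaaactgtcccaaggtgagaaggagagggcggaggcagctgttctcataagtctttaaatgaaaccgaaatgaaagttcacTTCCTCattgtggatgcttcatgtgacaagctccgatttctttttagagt
Cd68: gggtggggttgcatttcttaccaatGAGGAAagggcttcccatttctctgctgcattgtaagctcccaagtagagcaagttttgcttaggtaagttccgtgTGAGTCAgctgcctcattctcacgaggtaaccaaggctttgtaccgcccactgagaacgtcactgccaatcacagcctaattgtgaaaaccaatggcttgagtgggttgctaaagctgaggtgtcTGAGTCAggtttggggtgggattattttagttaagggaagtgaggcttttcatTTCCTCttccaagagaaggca
Cd163: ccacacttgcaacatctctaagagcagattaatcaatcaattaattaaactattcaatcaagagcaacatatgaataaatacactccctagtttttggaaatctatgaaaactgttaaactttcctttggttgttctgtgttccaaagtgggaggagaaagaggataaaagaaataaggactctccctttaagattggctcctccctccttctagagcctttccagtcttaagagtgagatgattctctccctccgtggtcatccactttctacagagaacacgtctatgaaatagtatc
Mertk: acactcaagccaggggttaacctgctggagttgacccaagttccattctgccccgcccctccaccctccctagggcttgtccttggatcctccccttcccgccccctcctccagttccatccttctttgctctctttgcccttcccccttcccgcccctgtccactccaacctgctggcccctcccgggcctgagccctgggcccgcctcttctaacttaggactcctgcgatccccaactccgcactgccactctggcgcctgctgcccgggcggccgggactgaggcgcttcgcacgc

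The macrophage genes of a group were high or low together from one array to the next. Among controls, array 1 was the lowest, array 3 the middle and array 2 the highest for 30 of the 33 tested members (90.9%), an order that 28.8% of all tested genes share. Among knockouts, array 2 was the lowest, array 3 the middle and array 1 the highest for 32 of 33 (97%), against 31.2% of all genes. Both orders held at once for 30 members (90.9%), against 16.4% of all genes. The orders were picked from these same values, so the shares describe the members and test nothing. The exceptions among controls were Cd163, Folr2 and Mertk, and the exception among knockouts was Cd163. The mean level of the tested members, relative to the control mean, stood at -0.56, 0.56 and 0.01 on control arrays 1, 2 and 3, at 0.76, -0.93 and 0.12 on the knockout arrays and at -1.16, -0.99 and -0.81 on the cold arrays. The cold arrays were thus low and close to one another, whereas 1 control array and 1 knockout array were high and 1 of each was low. The median SD between the arrays of a group was 0.67 for members in controls, 0.93 in knockouts and 0.20 in the cold, where the medians over all genes were 0.11, 0.14 and 0.08.

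**Figure D1:**
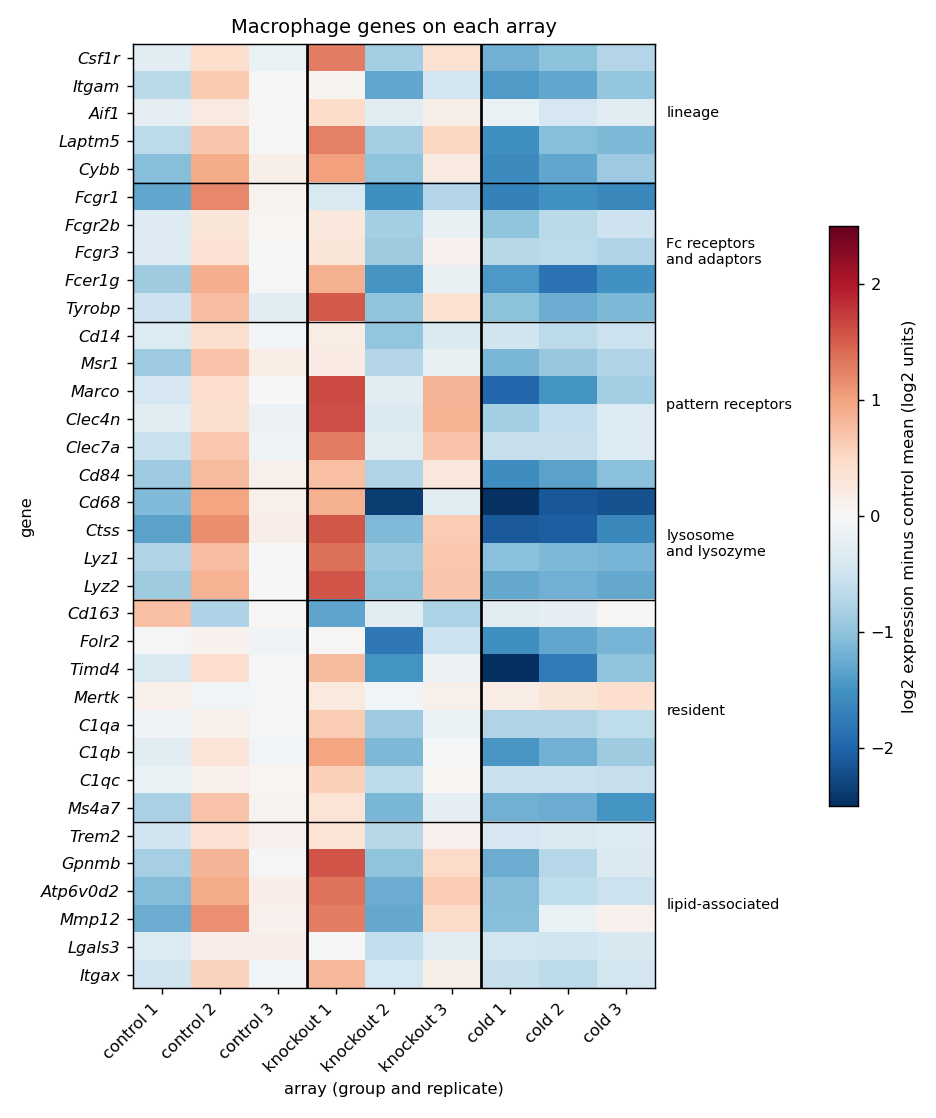
Log2 expression of 34 macrophage genes (rows, by role) on the 9 arrays (columns, by group and replicate), each minus the gene's mean over the 3 control arrays. Control array 2 and knockout array 1 are red for most genes, knockout array 2 and the 3 cold arrays are blue for most genes, and Cd163 runs the other way on control arrays 1 and 2 and knockout array 1.

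Between cold and room temperature controls, macrophage genes were lower in the cold, with a median difference of -0.98 over the 33 tested members and of -0.02 over all genes. The difference was below 0 for 32 of 33 (97%), against 56.3% of all genes, and Mertk was the exception. On 23 members (69.7%) each cold array was lower than each control array, where 18.2% of all genes did the same, and on 1 member, Mertk, each was higher (14.6% of all genes). None of these differences passed the threshold: 0 of 33 members had a limma adjusted p under 0.05, against 1.51% of all genes. At an unadjusted limma p under 0.05, 13 members (39.4%) were lower, against 11% of all genes, and 1 was higher, against 9.29%. The smallest adjusted p was that of Folr2 (limma adjusted p = 0.153). Fitting only the cold and control arrays, 4 members passed (12.1%), where 7.96% of all genes passed: Folr2, C1qa, C1qb and C1qc, all lower in the cold (limma adjusted p from 0.00556 to 0.0389). Without knockout array 2, 1 member passed (3.03%), Folr2 (limma adjusted p = 0.0129), fewer than the 5.8% of all genes that then passed.

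The count of 13 and 1 at an unadjusted p under 0.05 also moved with single arrays. It was 1 in both directions together without control array 2 or without control array 3, against 15.5% and 13.4% of all genes. It was 17 without control array 1, 21 without knockout array 1 and 23 without knockout array 2 (23.5%, 25.2% and 26.7%). It was 8 without knockout array 3 (16.3%), and 2, 2 and 5 without cold arrays 1, 2 and 3 (15.9%, 12.9% and 15.4%). The share of all genes at that p moved too, between 12.9% and 26.7% over the 9 arrays left out in turn. Without the array of each group nearest its mean the count was 0, against 4.66% of all genes, with the median at -1.05. The median difference kept to between -1.31 and -0.73 whichever single array was left out.

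Between knockout and control, macrophage genes showed no shared difference: the median was 0.08 over the 33 tested members and 0.02 over all genes, and 16 of 33 were below 0 (48.5%, against 43% of all genes). None passed the threshold (0 of 33, against 0.365% of all genes) and none reached an unadjusted limma p under 0.05, where 7.33% of all genes were lower and 8.84% higher at that p. The arrays overlapped for each tested member, whereas 8.03% of all genes were lower and 9.31% higher in knockouts without overlap. Instead, knockout arrays 1 and 2 lay at the extremes. Array 1 was the highest of the 9 arrays for 19 members (57.6%, against 22.6% of all genes), and array 2 was below each control array for 24 (72.7%, against 29.9%). The smallest adjusted p belonged to Cd163 (limma adjusted p = 0.378). Without knockout array 1 the median was -0.39 with 4 members at an unadjusted p under 0.05, and without knockout array 2 it was 0.36 with 5. Without control array 1 the median was -0.31 with 2 such members, and without control array 2 it was 0.20 with 1. The share of all genes at that p ran from 11% to 20.3% over the single arrays left out.

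Between cold and knockout, the median was -1.00 over the 33 tested members and -0.03 over all genes, and 31 of 33 were below 0 (93.9%, against 56.7% of all genes). The knockout arrays were spread so widely that only 11 members (33.3%) separated without overlap, each lower in the cold, against 20% of all genes, and 0 were higher, against 12.3%. None passed the threshold (0 of 33, against 2.4% of all genes). At an unadjusted limma p under 0.05, 10 members were lower (30.3%, against 16.7% of all genes) and 0 were higher (10.1% of all genes). The smallest adjusted p was that of Marco (limma adjusted p = 0.0677). Each cold array was below knockout arrays 1 and 3 for 31 members (93.9%, against 30.7% of all genes), and knockout array 2 was the one that reached the cold levels. Without it 15 members passed (45.5%, where 16% of all genes passed), all lower in the cold: Csf1r, Laptm5, Fcgr3, Tyrobp, Marco, Clec4n, Clec7a, Cd68, Ctss, Lyz1, Lyz2, Folr2, C1qa, C1qb and C1qc (limma adjusted p from 0.0173 to 0.0436). The number at an unadjusted p under 0.05 was then 26, with the median at -1.50, and 34.6% of all genes were at that p. Without knockout array 1 it was 2 (21.6% of all genes), with the median at -0.51. It was 1 without knockout array 3 or cold array 1 (18.5% and 20.7% of all genes) and 2 without cold array 2 (18.3%). Without control array 3 or cold array 3 it was 5 (22.3% and 20.4%). Leaving out control array 1 or 2 gave 11 and 9 (28.6% and 27.8%). The 2 comparisons with the cold group share its arrays.

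**Figure D2:**
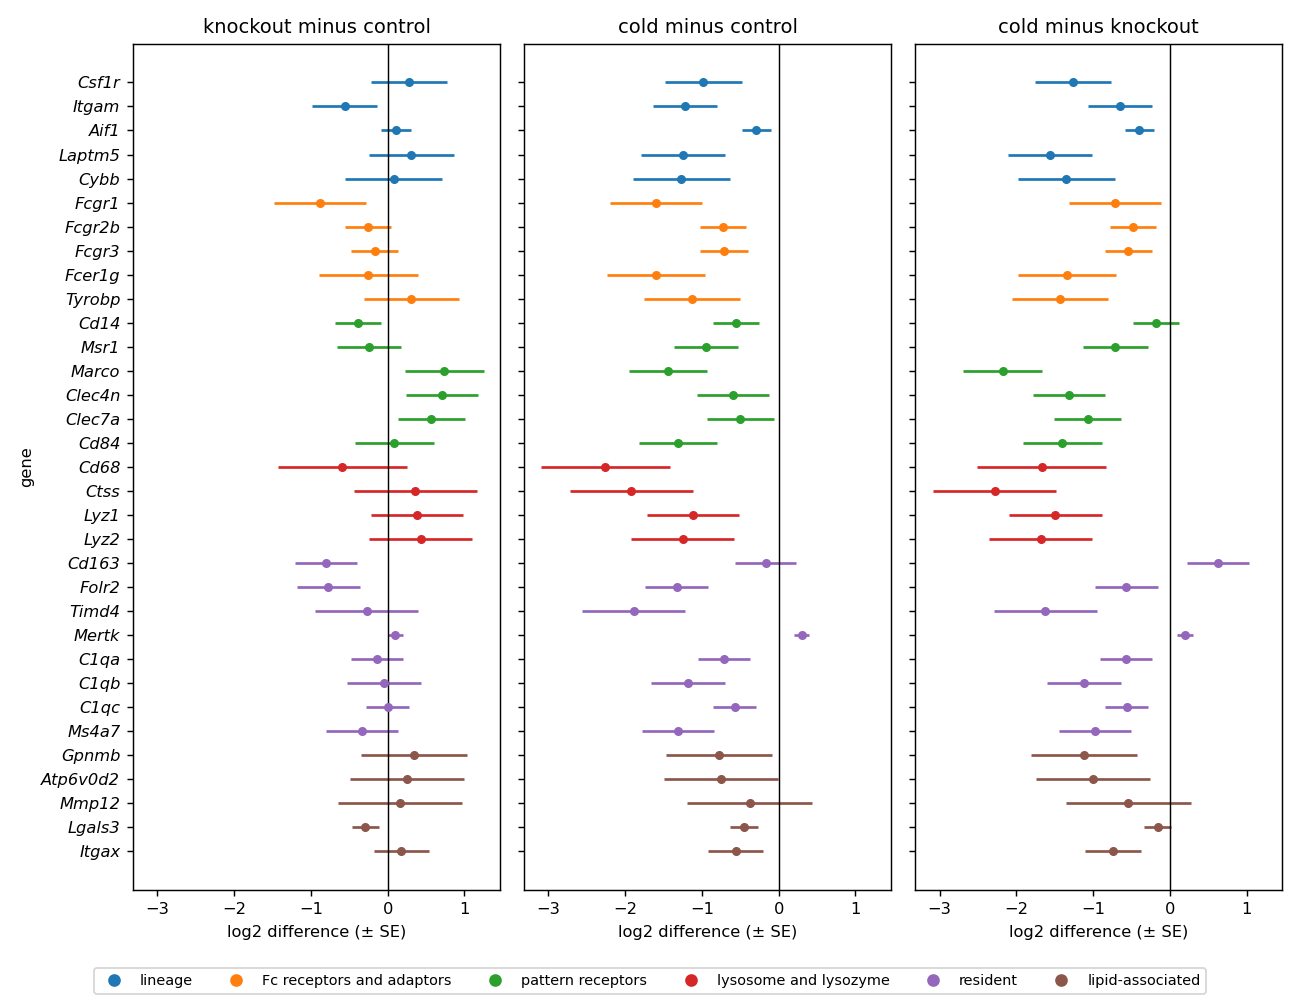
Log2 difference with its moderated standard error for each of the 33 tested macrophage genes in the 3 comparisons, coloured by role. Knockout minus control scatters on both sides of 0 (median 0.08), while cold minus control (median -0.98) and cold minus knockout (median -1.00) lie on the lower side apart from Mertk in both and Cd163 in the latter.

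Lineage genes mark the macrophage and its myeloid relatives. Csf1r, the receptor for the growth factor that keeps macrophages alive, read 9.46, 10.19 and 9.59 on control arrays 1, 2 and 3, 11.03, 8.90 and 10.13 on the knockout arrays and 8.54, 8.73 and 9.01 on the cold arrays. Its cold arrays lay below each control array, and knockout arrays 1 and 2 lay on either side of the controls. The difference of cold from control was -0.98 ± 0.50 (SE) and that from knockout was -1.26 ± 0.50 log2 units (limma adjusted p = 0.308 and 0.167).

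Itgam, the alpha chain of the integrin through which myeloid cells bind complement-coated particles, read 7.71, 9.04 and 8.38 in controls, 8.45, 7.09 and 7.90 in knockouts and 6.97, 7.09 and 7.42 in the cold. Knockout array 2 was as low as the cold arrays, which all lay under the controls, with a difference of -1.22 ± 0.42 from control (limma adjusted p = 0.185). Laptm5, a lysosomal membrane protein of blood cells, read 9.86, 11.22 and 10.47 in controls, 11.78, 9.68 and 11.04 in knockouts and 8.98, 9.45 and 9.39 in the cold. The cold arrays lay below the 6 others, and cold minus knockout was -1.56 ± 0.55 (limma adjusted p = 0.138). Cybb, the catalytic subunit of the phagocyte NADPH oxidase, went from 8.74 in the cold to 11.35 on knockout array 1 with groups that overlapped. Aif1, which encodes the calcium-binding protein IBA1, varied least of the 5 tested lineage genes, between 6.07 and 6.94. Spi1, read on the row with the second name, went from 6.50 on cold array 1 to 8.82 on knockout array 1, with controls at 7.28, 8.40 and 7.66, in the same order of arrays as the other lineage genes.

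Fc receptors bind antibody-coated targets, and their adaptors carry the signalling motifs. Fcgr1, the high-affinity IgG receptor, read 6.17, 8.67 and 7.56 in controls, 7.09, 5.93 and 6.74 in knockouts and 5.79, 5.96 and 5.85 in the cold. Control array 2 stood above the rest, as for 12 of the 33 tested members (36.4%, against 12.3% of all genes). Knockout array 1 was the highest for 19 members (57.6%, against 22.6%). The cold values of Fcgr1 were nearly level. Cold minus control was -1.60 ± 0.60 (limma adjusted p = 0.206). Fcer1g, the gamma chain shared by activating Fc receptors, read 8.39, 10.17 and 9.24 in controls, 10.15, 7.79 and 9.09 in knockouts and 7.83, 7.42 and 7.76 in the cold. The cold arrays lay under all controls but level with knockout array 2, and the difference from control was -1.60 ± 0.64 (limma adjusted p = 0.228). Fcgr2b, the inhibitory IgG receptor, read 8.15, 8.78 and 8.52 in controls, 8.74, 7.64 and 8.30 in knockouts and 7.48, 7.80 and 7.97 in the cold. Its difference of -0.73 ± 0.30 was smaller (limma adjusted p = 0.231) and again without overlap between cold and control. Fcgr3, an activating IgG receptor, averaged 8.16 ± 0.34 in controls (SD, n = 3), with 7.99 ± 0.64 for knockouts and 7.45 ± 0.05 for the cold arrays. Tyrobp, the adaptor through which Trem2 signals, had means of 8.89 ± 0.68, 9.19 ± 1.27 and 7.76 ± 0.11. Each of its cold arrays was below each of the 6 others, but cold array 1 (7.87) and knockout array 2 (7.88) nearly met. The median over the 5 genes was -1.13 for cold minus control and -0.25 for knockout minus control.

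Pattern and scavenger receptors recognise microbes and modified lipids. Marco, a class A scavenger receptor, read 9.28, 10.12 and 9.71 in controls, 11.34, 9.43 and 10.55 in knockouts and 7.73, 8.20 and 8.85 in the cold. The cold arrays lay below the 6 others with no overlap, and knockout arrays 1 and 3 lay above all controls. Cold minus knockout was -2.18 ± 0.51 and cold minus control -1.44 ± 0.51 (limma adjusted p = 0.0677 and 0.191). Clec4n, the mannan receptor dectin-2, read 7.12, 7.82 and 7.27 in controls, 9.03, 7.04 and 8.27 in knockouts and 6.56, 6.80 and 7.07 in the cold. Clec7a, the beta-glucan receptor dectin-1, read 6.39, 7.62 and 6.82 in controls, 8.22, 6.66 and 7.65 in knockouts and 6.36, 6.36 and 6.60 in the cold. Knockout arrays 1 and 3 of both lectins stood above all cold arrays. Knockout array 2 was far lower, within the cold range for Clec4n and just above each cold array for Clec7a. Cold minus knockout was -1.31 ± 0.47 for Clec4n and -1.07 ± 0.44 for Clec7a (limma adjusted p = 0.142 and 0.174). Cd84, a homophilic receptor of the SLAM family, read 9.53, 11.24 and 10.56 in controls, 11.20, 9.68 and 10.72 in knockouts and 8.88, 9.11 and 9.40 in the cold. Its cold arrays lay below the 6 others, by -1.31 ± 0.51 from control and -1.40 ± 0.51 from knockout (limma adjusted p = 0.221 and 0.144). Cd14, the co-receptor for lipopolysaccharide, ranged from 5.64 on knockout array 2 to 7.03 on control array 2, and Msr1, a scavenger receptor for modified lipoproteins, from 6.46 in the cold to 8.33 on control array 2. The 6 genes had a median of 0.33 for knockout minus control, of -0.77 for cold minus control and of -1.19 for cold minus knockout.

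Lysosomal genes had the widest swings among the roles. Cd68, a lysosomal glycoprotein used as a general macrophage marker, read 10.24, 12.33 and 11.47 in controls, 12.22, 8.97 and 11.07 in knockouts and 8.86, 9.22 and 9.17 in the cold. Knockout array 2 fell among the cold arrays while knockout array 1 lay near the highest control, and cold lay below all controls. Cold minus control was -2.26 ± 0.84, the largest fitted difference among members in that comparison, with a limma adjusted p of 0.207. Ctss, the cysteine protease cathepsin S that trims the invariant chain for antigen presentation, read 11.79, 14.30 and 13.30 in controls, 14.69, 12.03 and 13.76 in knockouts and 11.04, 11.07 and 11.52 in the cold. Its cold arrays lay below the 6 others, though control array 1 and knockout array 2 came close. Cold minus control was -1.92 ± 0.80 and cold minus knockout -2.28 ± 0.80 (limma adjusted p = 0.241 and 0.134).

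The lysozymes Lyz1 and Lyz2 break down bacterial cell walls and are close paralogs, so the array may not part them fully. Lyz2 read 15.23, 16.97 and 16.12 in controls, 17.68, 15.11 and 16.81 in knockouts and 14.83, 14.91 and 14.83 in the cold. Lyz1 read 11.75, 13.27 and 12.49 in controls, 13.88, 11.57 and 13.18 in knockouts and 11.46, 11.38 and 11.33 in the cold. Both put all cold arrays below the 6 others in the same order of arrays, with cold minus knockout at -1.68 ± 0.67 for Lyz2 and -1.49 ± 0.60 for Lyz1 (limma adjusted p = 0.17 and 0.172). The 4 lysosomal genes had medians of -1.59 for cold minus control and -1.67 for cold minus knockout. The latter was -2.48 without knockout array 2 and -1.05 without knockout array 1, and the median of knockout minus control went from 0.37 to 1.06 without knockout array 2.

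**Figure D3:**
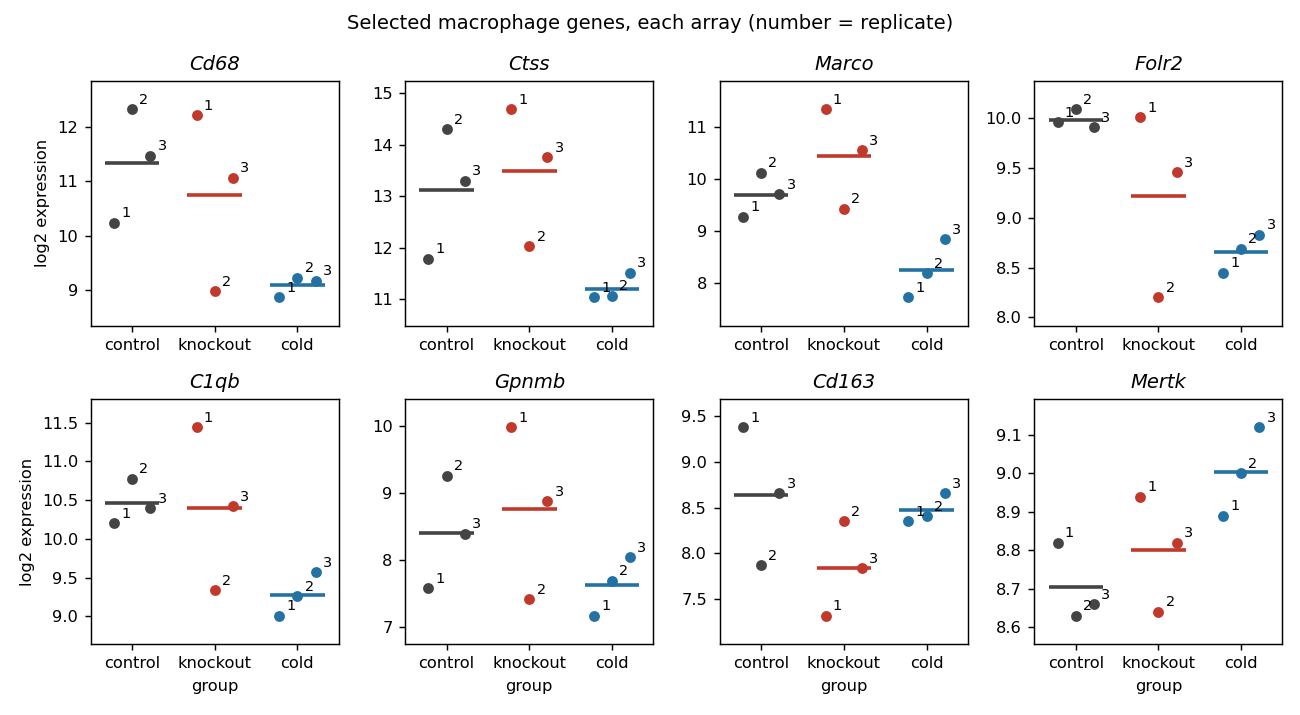
Log2 expression of 8 macrophage genes on each array (points, numbered by replicate) with the group mean (line), on an axis fitted to each gene. Cd68, Ctss, Marco, C1qb and Gpnmb share the order of arrays, Folr2 is level in controls only, Cd163 runs in the opposite order and Mertk is highest in the cold.

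Resident genes as a list were the steadiest in controls, although single SDs went from 0.09 for Folr2 to 0.77 for Ms4a7. C1qa, C1qb and C1qc encode the 3 chains of C1q, and Folr2, the folate receptor beta, marks perivascular resident macrophages. Folr2 read 9.96, 10.09 and 9.91 in controls, 10.01, 8.20 and 9.46 in knockouts and 8.45, 8.69 and 8.83 in the cold. Controls were level and above all cold arrays, and the knockouts ran from control level to below the cold. Cold minus control was -1.33 ± 0.41 (limma adjusted p = 0.153) and knockout minus control -0.77 ± 0.41 (limma adjusted p = 0.407). C1qa read 9.08, 9.28 and 9.11 in controls, 9.80, 8.26 and 8.99 in knockouts and 8.40, 8.40 and 8.52 in the cold. C1qb read 10.20, 10.78 and 10.40 in controls, 11.44, 9.34 and 10.42 in knockouts and 9.01, 9.26 and 9.57 in the cold. For each of the 3 chains the cold arrays lay below all controls and among or above knockout array 2. Cold minus control was -1.18 ± 0.48 for C1qb and -0.71 ± 0.34 for C1qa (limma adjusted p = 0.235 and 0.278). C1qc had means of 7.29 ± 0.14 (SD, n = 3), 7.29 ± 0.63 and 6.72 ± 0.00 in control, knockout and cold.

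Timd4, a phosphatidylserine receptor of long-lived macrophages, read 10.86, 11.66 and 11.19 in controls, 12.04, 9.75 and 11.10 in knockouts and 8.29, 9.50 and 10.24 in the cold. It was the member with the widest spread in the cold (SD 0.98), and its cold arrays lay below all controls, by -1.89 ± 0.67 (limma adjusted p = 0.192). Ms4a7, a membrane protein of mature macrophages, read 6.69, 8.23 and 7.60 in controls, 7.86, 6.37 and 7.29 in knockouts and 6.31, 6.27 and 6.01 in the cold. Its cold arrays were below the 6 others, with a difference of -1.31 ± 0.47 from control (limma adjusted p = 0.193).

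Cd163 and Mertk went their own way. Cd163, the scavenger receptor for haemoglobin bound to haptoglobin, read 9.38, 7.87 and 8.66 in controls, 7.32, 8.35 and 7.84 in knockouts and 8.35, 8.41 and 8.66 in the cold. Its arrays ran 2, 3, 1 from low to high in controls and 1, 3, 2 in knockouts, the reverse of the order that 30 other members had in both groups, and its groups overlapped. Knockout minus control was -0.80 ± 0.40 (limma adjusted p = 0.378), and cold minus control was -0.17 ± 0.40 (limma adjusted p = 0.845) and turned to 0.20 without control array 1. Mertk, a receptor kinase for the uptake of apoptotic cells, read 8.82, 8.63 and 8.66 in controls, 8.94, 8.64 and 8.82 in knockouts and 8.89, 9.0 and 9.12 in the cold. Its cold arrays lay above all controls by 0.30 ± 0.10, which did not pass (limma adjusted p = 0.17).

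Lipid-associated genes were the most variable in room temperature arrays after the lysosomal ones. Gpnmb, a transmembrane glycoprotein of lipid-laden macrophages, read 7.58, 9.26 and 8.39 in controls, 9.98, 7.41 and 8.88 in knockouts and 7.17, 7.69 and 8.04 in the cold. The 3 groups overlapped, and knockout minus control was 0.35 ± 0.69 and cold minus control -0.78 ± 0.69 (limma adjusted p = 0.841 and 0.547). Itgax, the integrin alpha chain CD11c, read 6.33, 7.39 and 6.75 in controls, 7.64, 6.39 and 6.96 in knockouts and 6.25, 6.16 and 6.36 in the cold. The cold arrays lay below the knockouts and touched the controls only at control array 1, with cold minus knockout at -0.74 ± 0.36 (limma adjusted p = 0.227). Lgals3, the lectin galectin-3, read 7.00, 7.50 and 7.50 in controls, 7.34, 6.73 and 7.07 in knockouts and 6.88, 6.84 and 6.94 in the cold. Its cold arrays were just under all controls, by -0.45 ± 0.18 (limma adjusted p = 0.232).

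Trem2 itself was dim, with 4.54, 5.40 and 5.14 in controls, 5.38, 4.34 and 5.13 in knockouts and 4.61, 4.65 and 4.69 in the cold, all but a pair of values under the filter of 5.31 that is set on row means. It followed the same order of arrays, with the cold inside the range of the controls. Atp6v0d2, a subunit of the proton pump that acidifies lysosomes, had means of 6.00 ± 1.02 (SD, n = 3), 6.25 ± 1.35 and 5.25 ± 0.29 in control, knockout and cold. Mmp12, the macrophage elastase, had means of 6.57 ± 1.20, 6.73 ± 1.30 and 6.19 ± 0.62. The 5 tested genes had a median of -0.56 for cold minus control, and 0.18 for knockout minus control, which was 0.88 without knockout array 2.

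The difference between the resident and lipid-associated lists varied most among control arrays. The resident list stood at -0.11, 0.12 and -0.01 relative to the control mean on control arrays 1, 2 and 3, and the lipid-associated list at -0.80, 0.73 and 0.07. On the knockout arrays the resident list stood at 0.29, -0.93 and -0.21 and the lipid-associated list at 1.01, -0.91 and 0.29. In the cold they stood at -1.07, -0.84 and -0.66 and at -0.89, -0.54 and -0.33. The resident list was lower on each cold array than on any control array, whereas the cold values of the lipid-associated list lay on either side of control array 1. The lipid-associated minus the resident level was -0.69, 0.61 and 0.08 in controls, 0.72, 0.02 and 0.51 in knockouts and 0.18, 0.30 and 0.33 in the cold. These values overlapped between the 3 groups, since controls alone spanned nearly the whole range. Cd163 runs against the rest of the resident list, and without it, a choice made after seeing the data, the values were -0.57, 0.48 and 0.09 in controls, 0.49, 0.11 and 0.42 in knockouts and 0.30, 0.39 and 0.43 in the cold. The SD between control arrays had a median of 0.22 over the 8 resident genes, from 0.09 for Folr2 to 0.77 for Ms4a7, and of 0.84 over the 5 tested lipid-associated genes, from 0.29 for Lgals3 to 1.20 for Mmp12, so single genes of the lists overlapped.

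Other genes of these states and pathways give the setting of the members. Of 13 tested further resident genes 0 passed in any of the 3 comparisons, with medians of -0.32 for knockout minus control, -0.49 for cold minus control and -0.06 for cold minus knockout. At an unadjusted limma p under 0.05, 5 were lower and 1 higher in knockouts than in controls, against 7.33% and 8.84% of all genes. In the cold 4 were lower and 0 higher than in controls, against 11% and 9.29%. Mrc1, the mannose receptor, read 11.04, 11.15 and 10.98 in controls, 11.02, 10.03 and 10.55 in knockouts and 9.92, 10.04 and 10.11 in the cold. Its cold arrays were below all controls, by -1.04 ± 0.22 (limma adjusted p = 0.0742). Stab1, a scavenger receptor also made by endothelium, was -0.37 ± 0.09 in knockouts and -0.44 ± 0.09 in the cold relative to control (limma adjusted p = 0.115 and 0.0698).

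Of 15 tested further lipid-handling and lysosomal genes, 1 passed in each comparison. The shares of all genes that passed were 0.365% between knockout and control, 1.51% between cold and control and 2.4% between cold and knockout. Ctsl, the protease cathepsin L, fell by 0.70 ± 0.10 in knockouts (limma adjusted p = 0.0471), with 14.22, 13.80 and 14.03 in controls and 13.25, 13.35 and 13.34 in knockouts. Its cold arrays, at 13.57, 13.58 and 13.58, were also below controls, by -0.44 ± 0.10, which did not pass (limma adjusted p = 0.082). Acp5, a tartrate-resistant acid phosphatase, read 12.44, 12.07 and 12.36 in controls and 11.77, 11.68 and 11.46 in the cold, a fall of 0.65 ± 0.12 (limma adjusted p = 0.0487). Its knockout arrays, at 11.64, 11.76 and 11.74, were lower by a similar -0.58 ± 0.12, which did not pass (limma adjusted p = 0.0833). Both genes were lower in knockouts and in the cold without overlap with controls. Like 3 of the 33 tested members and unlike the other 30, they did not follow the order of control array 1 under array 3 under array 2. Fabp5, a fatty acid binding protein that many cell types make, read 8.91 on each control array. It read 7.90, 8.74 and 8.39 in knockouts and 9.62, 9.85 and 9.92 in the cold. Relative to control it was -0.56 ± 0.20 in knockouts and 0.89 ± 0.20 in the cold, and neither passed (limma adjusted p = 0.222 and 0.0795). From knockout to cold the rise was 1.45 ± 0.20 (limma adjusted p = 0.0198). These calls stood near the threshold. The Ctsl call held without control array 2 or knockout array 1 and was lost without any of the other 7 arrays (limma adjusted p from 0.0785 to 0.24). The Acp5 call held without control array 2, knockout array 1 or knockout array 2 and was lost without any of the other 6 (limma adjusted p from 0.0968 to 0.202). The Fabp5 call was lost without control array 3, knockout array 3 or any 1 of the cold arrays (limma adjusted p from 0.0576 to 0.11).

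Of 7 tested genes of recruited monocytes, 10 of ITAM signalling, 4 partners of the NADPH oxidase and 5 growth factors and ligands, 0 passed in any of the 3 comparisons. The medians for cold minus control were -1.00, -0.90, -0.90 and -0.26 in that order, and for knockout minus control -0.01, 0.10, 0.14 and -0.31. Csf1, the growth factor that Csf1r binds, read 8.81, 8.63 and 8.65 in controls, 8.46, 8.13 and 8.36 in knockouts and 8.43, 8.46 and 8.41 in the cold. It was lower in both groups without overlap with controls, by -0.38 ± 0.09 in knockouts and -0.26 ± 0.09 in the cold, and neither difference reached the threshold (limma adjusted p = 0.108 and 0.182). Of 6 tested activation genes 1 passed, between cold and knockout, where 2.4% of all genes passed. It was Nos2, which makes nitric oxide, higher in the cold than in knockouts by 0.48 ± 0.09 (limma adjusted p = 0.047), with 6.26, 6.18 and 6.16 against 5.52, 5.86 and 5.76. That call held without control array 1 or knockout array 2 and was lost without any of the other 7 arrays (limma adjusted p from 0.0535 to 0.175). Nos2 read 5.71, 5.83 and 5.86 in controls, and cold minus control, at 0.40 ± 0.09, did not pass (limma adjusted p = 0.0881).

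Markers of other blood cells moved over the arrays with the macrophage genes. The 6 genes common to leukocytes stood at -0.68, 0.65 and 0.03 on the control arrays, at 1.14, -0.62 and 0.41 on the knockout arrays and at -1.22, -1.21 and -1.05 in the cold, the order that the members have. The 8 tested B cell genes stood at -0.77, 0.74 and 0.03, at 0.54, -0.90 and -0.11, and at -1.75, -1.12 and -0.68. The 10 tested T cell genes stood at -0.30, 0.32 and -0.02, at 1.41, -0.19 and 0.79, and at -0.88, -0.91 and -0.97, so knockout array 2 was nearer the controls for T cell than for macrophage genes. Of these 3 lists 1 gene passed, between cold and knockout, where 2.4% of all genes passed. Trat1, a T cell receptor adaptor, was lower in the cold than in knockouts by -1.10 ± 0.14 (limma adjusted p = 0.0167). That call was lost without control array 3, knockout array 3, cold array 1 or cold array 2 (limma adjusted p from 0.0545 to 0.09). Relative to control, Trat1 was 0.64 ± 0.14 in knockouts and -0.46 ± 0.14 in the cold, and neither passed (limma adjusted p = 0.0876 and 0.142). A list of 8 genes of lymph node follicles and vessels, added after the values were seen and with 7 tested, stood at -0.69, 0.72 and -0.03 in controls, at 0.99, -0.64 and 0.32 in knockouts and at -1.38, -0.86 and -0.53 in the cold, with 0 genes past the threshold. Among these, Fcer2a read 10.29, 11.87 and 11.14 in controls, 11.55, 10.25 and 10.88 in knockouts and 9.26, 9.63 and 10.20 in the cold. The lowest value in the whole table was 1.84, so no marker was listed at 0. The part of these other cells, and of how much lymph node a sample held, in the differences of the macrophage genes was not tested.

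**Figure D4:**
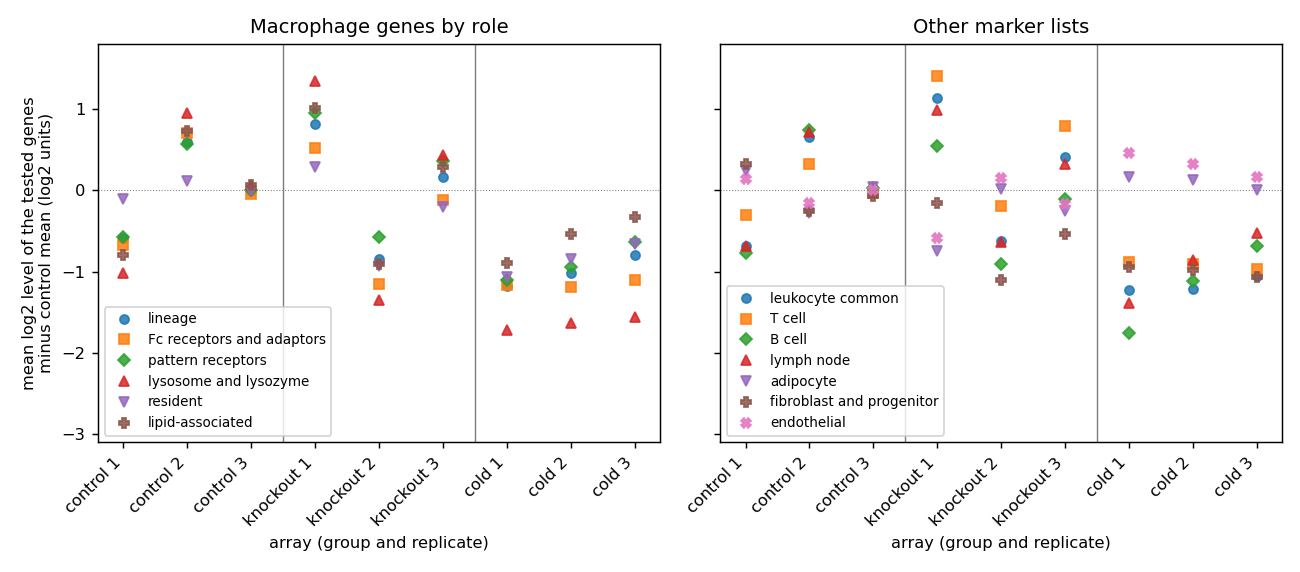
Mean log2 level of the tested genes of each list on each array, relative to the control mean. The left panel gives the macrophage genes by role, and the right panel gives other marker lists. Leukocyte, B cell and lymph node lists follow the macrophage genes over the arrays, while adipocyte and endothelial lists run the other way among controls and knockouts.

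Adipocyte and endothelial genes did not follow this order. The 9 tested adipocyte genes stood at 0.24, -0.28 and 0.04 in controls, at -0.75, 0.02 and -0.26 in knockouts and at 0.16, 0.13 and 0.01 in the cold, and the 6 endothelial genes at 0.14, -0.15 and 0.01, at -0.59, 0.15 and -0.17, and at 0.46, 0.33 and 0.16. Both were lowest on knockout array 1, where the macrophage genes were highest. The 5 tested fibroblast and progenitor genes stood at 0.33, -0.26 and -0.07 in controls, at -0.15, -1.10 and -0.54 in knockouts and at -0.94, -0.98 and -1.06 in the cold, and so had the order of the macrophage genes among knockouts but not among controls. None of these 3 lists had a gene past the threshold in any comparison. The 9 tested dendritic cell genes had a median of -0.25 for cold minus control, the 5 tested mast cell genes -0.63 and the 4 tested neutrophil genes -0.34, again with 0 past the threshold. The neutrophil genes stood at 2.33, -0.39 and 1.66 on knockout arrays 1, 2 and 3. The 10 thermogenic genes stood at 3.01, 5.69 and 4.81 on knockout arrays 1, 2 and 3 and at 4.49, 4.25 and 3.99 in the cold, so knockout array 1, with the highest macrophage level, was the lowest of the 3 knockout arrays for the thermogenic list, and knockout array 2 the reverse. Of these genes 7 rose past the threshold in knockouts, where 0.365% of all genes passed: Ucp1, Cidea, Cox7a1, Cpt1b, Fabp3, Cox8b and Otop1. In the cold 8 rose, the same 7 and Elovl3, where 1.51% of all genes passed.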

How the data were processed

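Total RNA of inguinal fat was read on 9 Affymetrix mouse transcriptome arrays, 3 in each group. The authors deposited log2 values for 72688 rows, made with Affymetrix Expression Console per the submitters' processing notes. The software version, the normalization method and the build used were not given in the sources used here. The log2 scale was taken from the range of the deposited values.

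Rows were named through the platform annotation, and 1611 symbols were updated with RefSeq's GRCm38.p6 gene table. A total of 31388 rows name 1 gene and 1362 name several. The brightest row of each gene was kept, and genes were tested where its mean over the 9 arrays was at least the median row mean of 5.31.

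All 9 arrays were fitted with 3 group means by limma 3.58.1 (R 4.3.3; lmFit, then eBayes; 6 residual and 1.23 prior degrees of freedom), two-sided, with Benjamini-Hochberg adjustment over 16972 genes at 0.05. Errors of differences are moderated standard errors. The fit was tested on simulated data. Other filters, normalizations, variance models and sets of arrays were tried as alternatives.

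The members, the gene lists, the alternatives and the naming rule were chosen with earlier results of these data known. So were the orders of arrays that were counted. Each member is named. All 9 values are given for those with an unadjusted p under 0.05 in a comparison and for Cd68, Csf1r, Itgam, Itgax, Trem2, Gpnmb, Cd163, Folr2, C1qa and Lyz2. Genes of other lists are named where they passed, or else up to 2 with the smallest p in the cold.

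Replicate numbers run from 1 to 3 in each group. Deviations of same-numbered arrays from their group means correlated between -0.46 and 0.09, so the numbers were not treated as pairs. The number of arrays limits the precision.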

Additional observations from a re-analysis of the deposited data

How the results depend on the processing

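The count of members past the threshold was 0 in each comparison under no filter on low values, the mean of a gene's rows, quantile normalization, arrays centred on the median, and eBayes with trend and robust. Leaving out the array of each group nearest its mean called 0 of all genes, so its 0 members say nothing about them. Fitting only the arrays of the groups compared gave 4 for cold against control and 0 for the others, and called 1351 of all genes there, 353 between cold and knockout and 0 between knockout and control. Array weights gave 27 between knockout and control, 31 between cold and control and 33 between cold and knockout, but the weighting stopped before it converged and called 11887, 9006 and 10020 of all genes, so nothing is read from it. In the same order, leaving out single arrays gave from 0 to 0, from 0 to 1 and from 0 to 15 members, where from 0 to 825, from 23 to 984 and from 14 to 2724 of all genes passed, and medians from -0.39 to 0.36, from -1.31 to -0.73 and from -1.50 to -0.51. With the replicate number as a block, 0 members passed in each comparison (1, 42 and 36 of all genes), and the medians stayed at 0.08, -0.98 and -1.00. An unadjusted limma p under 0.05 was then reached by 0, 2 and 1 members, against 14%, 15.8% and 21.2% of all genes. Same-numbered arrays did not deviate together, and 3 of the 9 arrays correlated best with their own number.

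Some differences that did not pass changed sign without 1 array. Over the 9 arrays left out in turn, knockout minus control ran from -0.23 to 0.84 for Csf1r (lowest without knockout array 1) and from -1.32 to 0.30 for Cd68 (highest without knockout array 2). It ran from -0.53 to 0.24 for C1qa (highest without knockout array 2). Lyz2 ran from -0.14 to 1.14, Gpnmb from -0.27 to 1.02 and Itgax from -0.14 to 0.48, each below 0 without control array 1 or knockout array 1. Cold minus control ran from -0.55 to 0.20 for Cd163 (highest without control array 1). The cause was not tested.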
